A study of Mus musculus with 28 samples.

Results

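The genes described here are 35 markers of brain cells other than macrophages: 11 of astrocytes, 12 of neurons, 7 of oligodendrocytes and 5 of the choroid plexus epithelium. They were listed by symbol, and 34 of them were found among the 14617 genes of the deposited table. Mog is not analysed here, which leaves 6 oligodendrocyte genes. Genes were put in a class by name, not by a threshold on their values, although earlier results of these data were known when the list was made. RNA was measured with MARS-seq, which captures polyadenylated RNA and counts the 3′ ends of transcripts by unique molecular identifiers (UMIs), so a count does not grow with the length of the gene.

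The libraries came from sorted brain macrophages of bone marrow chimeras, 16 weeks after transplantation. All hosts carried Cx3cr1 gfp/+ and had been lethally irradiated. The marrow carried a floxed human DNMT3A mutation allele (hDNMT3A fl/fl) either with Vav-Cre, which recombines in blood-forming cells (mutant), or without Cre (control), so the control marrow holds the floxed allele too. GFP-positive cells are of the host, and GFP-negative cells were taken as cells of the donor marrow. The GFP of these hosts marks cells that express Cx3cr1, so lack of GFP does not by itself show donor origin. Host and donor cells were sorted from the parenchyma, after the myelin layer of a Percoll gradient had been taken off, and from a wash of the leptomeninges at the brain surface. Control and mutant chimeras gave 4 libraries each of donor microglia, host microglia and donor leptomeningeal macrophages, and 2 libraries each of host leptomeningeal macrophages. The labels do not say that libraries are separate animals, so the tests measure the spread between these 28 libraries. A library was made from as many cells as the sort gave up to a set maximum, and the numbers of cells per library were not used here.

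Astrocytes clear glutamate, buffer ions and water and supply metabolites to neurons, and their RNA is rich in transporters and metabolic enzymes. Neurons are marked by synaptic vesicle proteins, glutamate receptor subunits and calcium-calmodulin signalling proteins. Oligodendrocytes wrap axons in myelin, a compacted membrane built on a small set of very abundant proteins, and the RNA of Mbp is carried out into the myelin itself. The choroid plexus epithelium lines the ventricles, secretes cerebrospinal fluid and makes transthyretin in very large amounts. Macrophages are not the main source of any of these RNAs, although some of the genes, among them Slc1a3 and Rtn1, have been seen in microglia. In a bulk library a UMI cannot be assigned to a cell, so more cells of another type and more of their RNA per macrophage cannot be told apart.

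Totals ran from 479077 to 3066506 UMIs per library. Donor microglia were the shallowest population, with 479077 to 1013608, so 3 UMIs in those libraries correspond to 2.96 to 6.26 counts per 1000000 UMIs of the library (CPM). The labels were set beside summed marker lists: 10 microglia genes made up 2.93% to 3.63% of UMIs in host microglia, 0.801% to 0.989% in donor microglia, 0.628% to 1.115% in host and 0.179% to 0.315% in donor leptomeningeal macrophages. By this list donor microglia overlapped with host leptomeningeal macrophages. Donor microglia thus held less of the resident microglial programme than host microglia, and 10 of its 10 genes were lower there. A list of 10 border macrophage genes was highest in host leptomeningeal macrophages (1.28% to 1.78%). Donor leptomeningeal libraries held 0.370% to 0.657% of their UMIs in these genes and 3.63% to 9.74% in 10 neutrophil genes, so the neutrophil list outweighed the border macrophage list in the libraries labelled as donor leptomeningeal macrophages. Among donor microglia, control library 2 stood apart: it had the highest share of astrocyte genes of the 8 libraries, and of neuron and oligodendrocyte genes more than any other control library. Results that rest on it are given with and without it.

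The 4 classes were concentrated in donor microglia. In donor microglia the choroid plexus genes made up 1.66%, 2.70%, 3.22% and 2.08% of all UMIs with control marrow and 2.12%, 2.95%, 2.44% and 3.50% with mutant marrow. In the other 20 libraries the same 5 genes took between 0.000392% and 0.0407%. No donor microglia library overlapped with any other library for this class.

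The astrocyte share of donor microglia was 0.101%, 0.472%, 0.132% and 0.169% with control marrow and 0.268%, 0.369%, 0.437% and 0.294% with mutant marrow. The neuron share was 0.0436%, 0.217%, 0.0633% and 0.0893% with control marrow and 0.149%, 0.210%, 0.231% and 0.155% with mutant marrow. The oligodendrocyte share was 0.0708%, 0.389%, 0.0677% and 0.124% with control marrow and 0.218%, 0.274%, 0.433% and 0.182% with mutant marrow. For each of these classes the lowest donor microglia library was still above the highest of the other 20 libraries. Those held 0.00861% to 0.0205% of UMIs in astrocyte genes, 0.00976% to 0.0213% in neuron genes and 0.0149% to 0.0292% in oligodendrocyte genes.

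**Figure D1:**
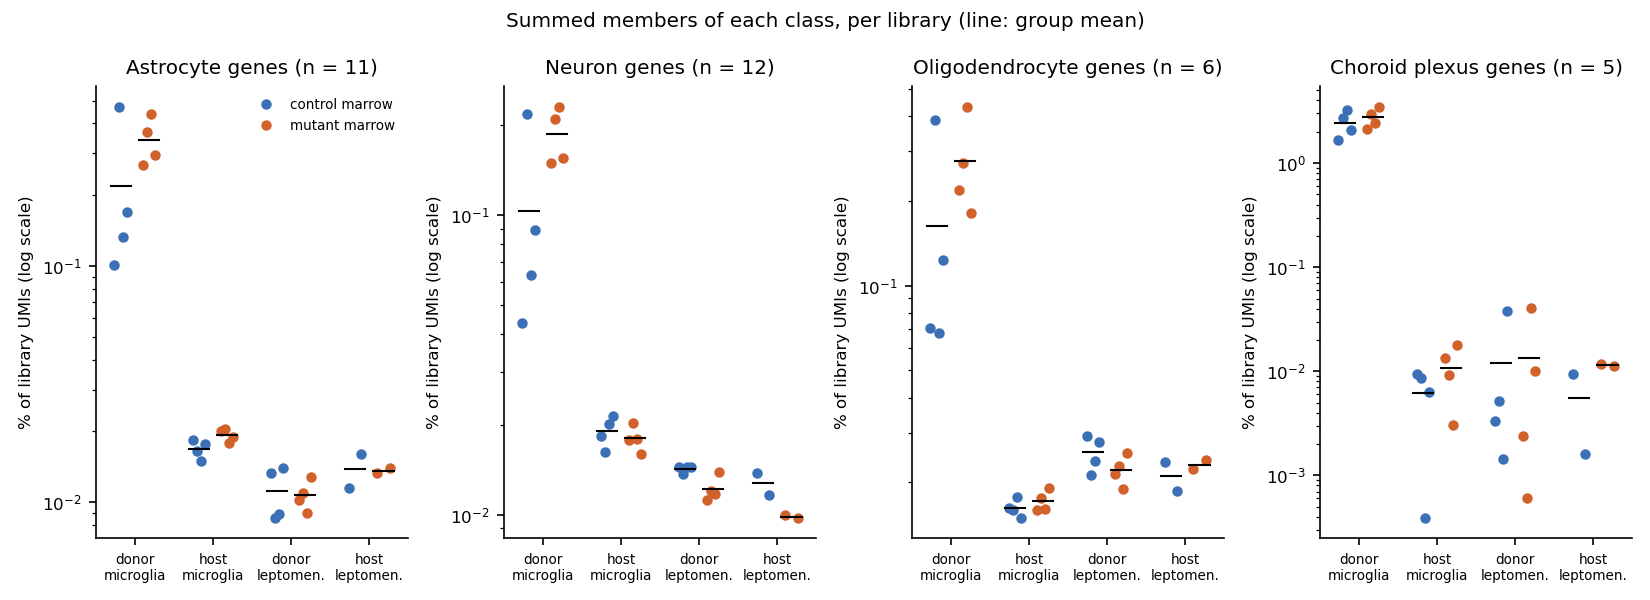
Share of all UMIs (percent, log axis) taken by the astrocyte, neuron, oligodendrocyte and choroid plexus genes in each of the 28 libraries, grouped by population and genotype. Each point is a library and each line a group mean, and the donor microglia libraries lie above all others in every class, with choroid plexus genes between 1.66% and 3.50% there.

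The make-up of each class differed between the populations. In donor microglia the astrocyte UMIs were spread over many genes: Aldoc, which encodes aldolase C of glycolysis, gave 30.8% of them, Clu, which encodes the secreted chaperone clusterin, 28.9%, and Slc1a2, which encodes the main glutamate transporter of astrocytes, 15.4%. In host microglia 94.5% of the astrocyte UMIs came from Slc1a3, which encodes another glutamate transporter, and 85.1% of the neuron UMIs came from Rtn1, which encodes an endoplasmic reticulum membrane protein. The oligodendrocyte UMIs of host microglia were mostly Cnp (41.5%), which encodes a phosphodiesterase of myelin, and Mag (39.8%), which encodes a myelin adhesion protein. Mbp, which encodes myelin basic protein, gave 17.4% of them there and 79.4% in donor microglia.

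In donor leptomeningeal macrophages Olfm1, which encodes a secreted olfactomedin of neurons, gave 68.8% of the neuron UMIs, against 20.2% in donor microglia. Nrgn, which encodes a calmodulin-binding protein of dendritic spines, was the leading neuron gene of donor microglia with 35.6%. Ttr, which encodes transthyretin, gave 88.7% to 95.9% of the choroid plexus UMIs in all 4 populations.

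**Figure D2:**
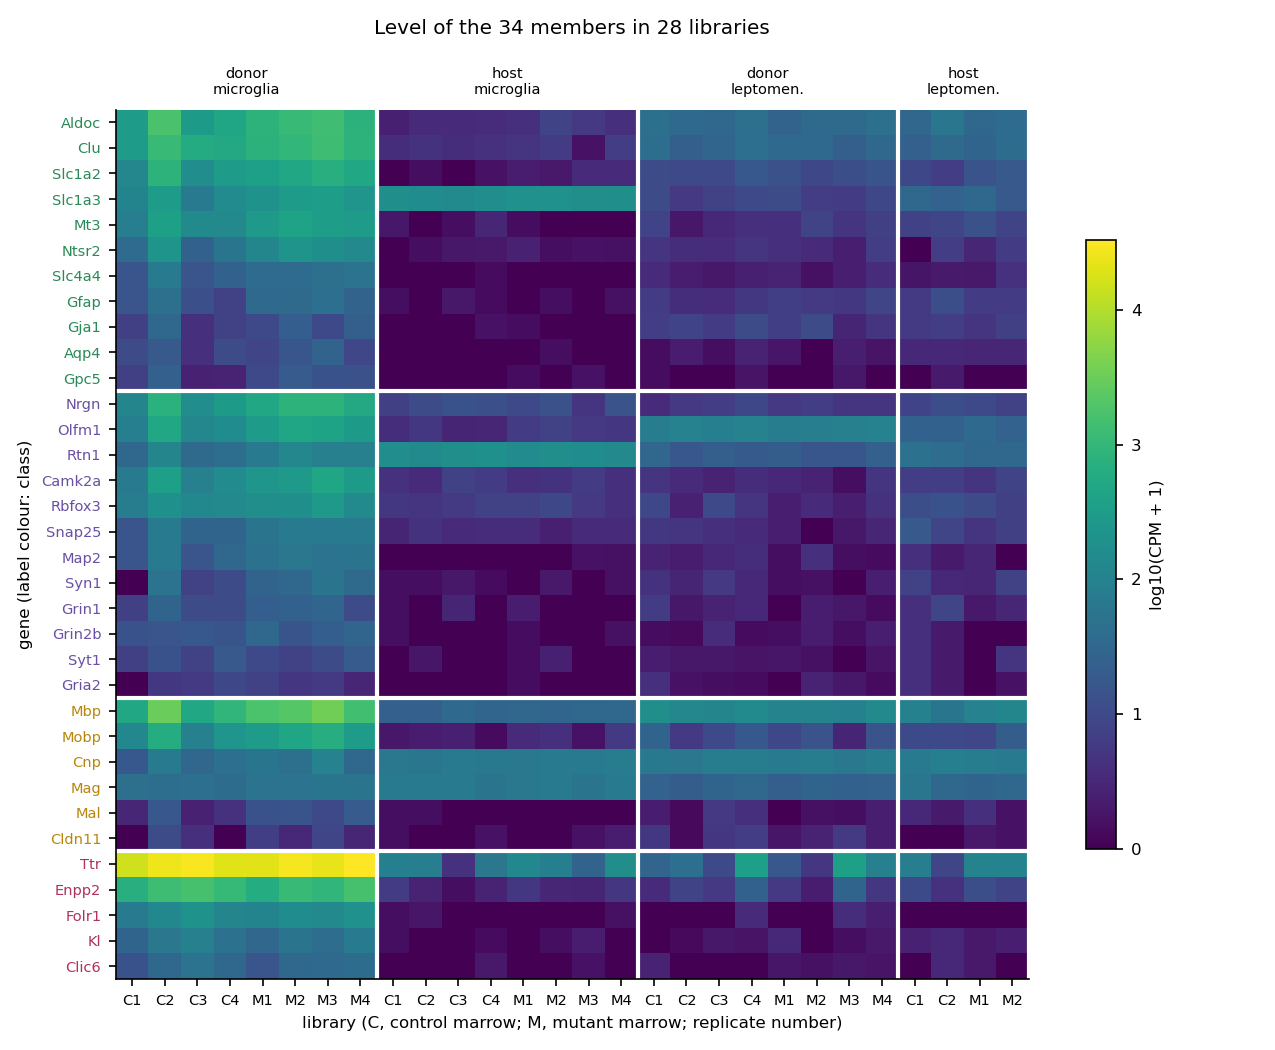
Level of each of the 34 genes (log10 of CPM + 1, colour) in each of the 28 libraries, with genes in rows by class and libraries in columns by population. Most rows are dark outside donor microglia, while Slc1a3, Rtn1, Mag and Cnp are also seen in host microglia.

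Aldoc (mm10 chromosome 11, 78322968 to 78327781) stood at 301, 1662, 285 and 465 CPM in control and 834, 1125, 1351 and 815 CPM in mutant donor microglia. It was at 1.45 to 7.51 CPM in host microglia, 26.1 to 46.0 CPM in donor leptomeningeal macrophages and 30.1 to 59.2 CPM in host leptomeningeal macrophages. All donor microglia libraries lay above all others, and host microglia lay below all leptomeningeal libraries.

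Clu (chromosome 14, 65968483 to 65981547) stood at 307, 1129, 595 and 534 CPM in control and 806, 973, 1323 and 837 CPM in mutant donor microglia. Its levels were 0.657 to 5.50 CPM in host microglia, 22.2 to 44.3 CPM in donor leptomeningeal macrophages and 23.8 to 38.6 CPM in host leptomeningeal macrophages. The order of the populations was the same as for Aldoc, and the leptomeningeal populations overlapped each other.

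Slc1a2 (chromosome 2, 102658659 to 102790784) stood at 123, 823, 162 and 298 CPM in control and 358, 517, 713 and 501 CPM in mutant donor microglia. In host microglia it had 0 UMIs in control libraries 1 and 3 and at most 2.63 CPM in the others. Both leptomeningeal populations lay between, at 5.70 to 16.9 CPM.

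Nrgn (chromosome 9, 37544492 to 37552904) stood at 113, 783, 162 and 290 CPM in control and 513, 847, 823 and 527 CPM in mutant donor microglia. Its levels overlapped among the other populations, with 3.94 to 13.4 CPM in host microglia, 2.64 to 8.49 CPM in donor and 6.78 to 11.4 CPM in host leptomeningeal macrophages. Unlike the 3 astrocyte genes above, Nrgn thus did not set host microglia below the leptomeningeal libraries.

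Olfm1 (chromosome 2, 28192992 to 28230736) stood at 89.8, 488, 125 and 154 CPM in control and 310, 465, 412 and 287 CPM in mutant donor microglia. In donor leptomeningeal macrophages it ran from 78.8 to 102 CPM, which overlapped with control library 1 of donor microglia. Host leptomeningeal macrophages held 23.9 to 34.1 CPM and host microglia 1.96 to 6.51 CPM, each apart from the rest.

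Rtn1 (chromosome 12, 72211752 to 72409054) had the opposite order in the parenchyma. It stood at 163, 137, 169 and 184 CPM in control and 149, 168, 158 and 131 CPM in mutant host microglia, and all of these lay above donor microglia. Donor microglia held 31.3, 113, 36.1 and 41.6 CPM in control and 69.1, 121, 92.4 and 90.3 CPM in mutant libraries. Host leptomeningeal macrophages held 31.9 to 49.9 CPM, above the 14.9 to 30.4 CPM of donor leptomeningeal macrophages.

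Mbp stood at 518, 3120, 508 and 928 CPM in control and 1748, 2153, 3505 and 1395 CPM in mutant donor microglia. Its levels were 23.1 to 34.3 CPM in host microglia, 94.7 to 167 CPM in donor and 56.95 to 117 CPM in host leptomeningeal macrophages. The leptomeningeal populations overlapped, and both lay above host microglia and below donor microglia.

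Mobp (chromosome 9, 120149707 to 120181484), which encodes a small basic protein of myelin, stood at 125, 628, 90.2 and 224 CPM in control and 308, 470, 647 and 318 CPM in mutant donor microglia. It held 0.344 to 4.88 CPM in host microglia and 1.92 to 27.7 CPM over the leptomeningeal libraries, and these ranges overlapped. Cnp (chromosome 11, 100574904 to 100591729) did not follow Mbp and Mobp. Its levels were 16.7 to 101 CPM in donor microglia, 59.6 to 81.2 CPM in host microglia, 62.0 to 82.4 CPM in donor and 69.1 to 86.6 CPM in host leptomeningeal macrophages, and all populations overlapped.

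Ttr was the most abundant of the 34 genes, at 15837, 25482, 30193 and 19575 CPM in control and 20447, 28119, 23214 and 33075 CPM in mutant donor microglia. Control host microglia had 88.7, 83.2, 3.43 and 60.6 CPM, and mutant host microglia 130, 90.1, 26.3 and 173 CPM. Control donor leptomeningeal macrophages had 28.6, 44.0, 8.80 and 355 CPM, and mutant ones 16.0, 4.29, 375 and 93.1 CPM. As a ratio of the highest to the lowest library, each of these populations thus had a wider range than donor microglia.

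Enpp2 (chromosome 15, 54838901 to 54952892), which encodes autotaxin, the secreted enzyme that makes lysophosphatidic acid, stood at 678, 1314, 1627 and 1054 CPM in control and 637, 1154, 939 and 1578 CPM in mutant donor microglia. It was at 0.490 to 5.33 CPM in host microglia, 1.23 to 27.4 CPM in donor and 3.42 to 11.04 CPM in host leptomeningeal macrophages. The 2 highest donor leptomeningeal libraries for Enpp2, control 4 and mutant 3, were also the 2 highest for Ttr.

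Folr1 (chromosome 7, 101858331 to 101870788), which encodes the folate receptor of the choroid plexus, stood at 75.1, 127, 197 and 113 CPM in control and 111, 158, 135 and 193 CPM in mutant donor microglia. It had 0 UMIs in all 4 host leptomeningeal libraries. Host microglia held 4 UMIs of Folr1 in all and donor leptomeningeal macrophages 17, of which control library 4 and mutant library 3 had the highest levels (2.58 and 2.88 CPM).

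Within donor microglia the ratios between classes differed in how far they ranged. Neuron UMIs per 100 astrocyte UMIs ran from 43.1 to 57.01 over the 8 libraries, a 1.32-fold range, while the astrocyte share itself ran from 0.101% to 0.472%. Oligodendrocyte UMIs per 100 astrocyte UMIs ran from 51.3 to 98.9 (1.93-fold). Choroid plexus UMIs per 100 astrocyte UMIs ran from 557 in mutant library 3 to 2436 in control library 3 (4.37-fold).

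Inside the choroid plexus class Folr1 UMIs per 100 Ttr UMIs ran from 0.475 to 0.652 (1.37-fold) and Enpp2 from 3.12 to 5.39 (1.73-fold). Kl, which encodes the co-receptor klotho, ran from 0.150 to 0.299 (2.00-fold) and Clic6 from 0.0724 to 0.168 (2.33-fold), the latter on as few as 6 UMIs in a library. Inside the oligodendrocyte class Mobp ran from 17.6 to 24.2 per 100 Mbp, while Mag, at 1.34 to 8.87, covered a 6.61-fold range. Inside the astrocyte class Slc1a2 ran from 41.0 to 64.2 per 100 Aldoc, a 1.57-fold range, and Clu from 67.9 in control library 2 to 209 in control library 3. The choroid plexus epithelium is known to express Clu as well. Control library 3 had the most choroid plexus UMIs per astrocyte UMI, while control library 1, with 1643 per 100, had 102 Clu per 100 Aldoc. A link between these ratios was not tested. These ratios describe 8 libraries and carry no test.

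**Figure D3:**
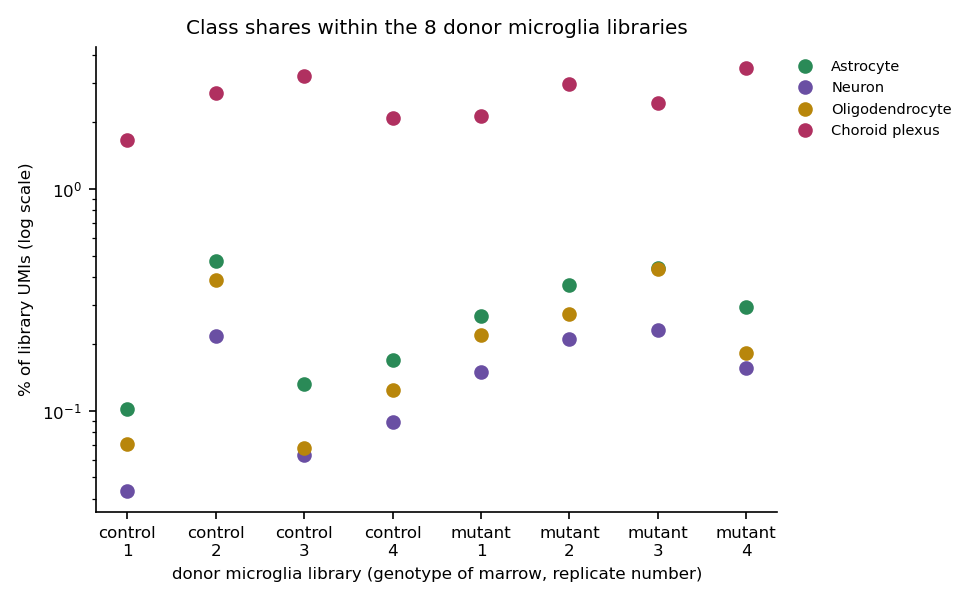
Share of UMIs (percent, log axis) of each class, by colour, in the 8 donor microglia libraries along the horizontal axis. Astrocyte, neuron and oligodendrocyte shares are high in control library 2 and in the mutant libraries, while choroid plexus shares run from 1.66% to 3.50% with both genotypes mixed.

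Donor microglia were compared with host microglia to ask how marrow-derived cells of the parenchyma differ from the resident cells they join. Of the 34 genes, 31 were higher in donor microglia and 2 were lower (edgeR's quasi-likelihood test with Benjamini-Hochberg adjustment over 12327 genes, adjusted p under 0.05). Of all genes tested 60.4% were called, 33.1% higher and 27.3% lower. Without control library 2 of donor microglia 30 of the 34 were higher and 2 lower. The median log2 difference was 6.15 over the 34 genes and 0.037 over all genes tested, and with library totals alone as the scaling the median of all genes moved by -0.17 and the split of calls over all genes went from 4084 higher and 3364 lower to 3515 and 4472. All 34 genes passed the filter on low counts. However, 15 of them, including Slc4a4, Gfap, Kl, Clic6 and Folr1, had at most 3 UMIs in every host microglia library. These could pass through the donor libraries where they were high, so for these the call follows in part from being testable.

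Astrocyte genes were higher in 11 of 11 cases, with a median log2 difference of 7.31. Slc4a4, which encodes a sodium bicarbonate cotransporter, had 222 UMIs in donor microglia and 1 UMI in host microglia, a ratio of 647 per UMI sequenced with a 95% counting interval of 115 to 25650. Gfap, which encodes the intermediate filament of astrocytes, had 175 and 6 UMIs, an 85.0-fold ratio (38.3 to 235). These intervals cover counting error, not the spread between libraries, for which the fitted log2 differences were 8.34 ± 0.48 (SE, adjusted p = 5.12e-19) for Slc4a4 and 6.17 ± 0.41 (adjusted p = 9.48e-18) for Gfap by the same edgeR test.

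Slc1a3 was the weakest of the class. It stood at 109, 316, 72.2 and 149 CPM in control and 199, 320, 334 and 230 CPM in mutant donor microglia, against 142 to 190 CPM in host microglia, and the populations overlapped. Its log2 difference of 0.48 ± 0.19 passed the edgeR test (adjusted p = 0.0346), but not with library totals alone (0.31, adjusted p = 0.166), nor without control library 2 of donor microglia (0.19, adjusted p = 0.201). The edgeR call was also lost when mutant donor library 2 or 3, control host library 2, 3 or 4, or mutant host library 1, 2 or 3 was left out (adjusted p = 0.055 to 0.0745).

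Neuron genes were higher in 11 of 12 cases, with a median log2 difference of 5.53, and Rtn1 fell by 0.92 ± 0.17 on the log2 scale (edgeR adjusted p = 4.13e-05). Snap25, which encodes a protein of the synaptic vesicle fusion machinery, rose by 4.42 ± 0.26 (edgeR adjusted p = 1.49e-19) from 1.502 to 3.56 CPM in host microglia to 14.6 to 72.2 CPM. Rbfox3, which encodes the nuclear antigen NeuN of mature neurons, rose by 5.04 ± 0.21 (edgeR adjusted p = 7.29e-19) from 3.05 to 8.51 CPM to 77.2 to 273 CPM. The glutamate receptor subunit genes Grin1, Grin2b and Gria2 had 113, 116 and 28 UMIs in all 8 donor libraries and 8, 3 and 1 UMIs in all 8 host libraries.

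Oligodendrocyte genes were higher in 4 of 6 cases. Mbp rose by 6.03 ± 0.36 (edgeR adjusted p = 3.47e-12) and Mobp by 7.82 ± 0.53 (edgeR adjusted p = 2.57e-11). Mag was lower by a small margin: its levels were 38.1 to 56.6 CPM in donor and 53.4 to 74.7 CPM in host microglia, and these ranges overlapped. Its log2 difference of -0.29 ± 0.12 passed edgeR's test (adjusted p = 0.0393) but not with DESeq2 size factors (adjusted p = 0.142), with DESeq2's Wald test (adjusted p = 0.181), with limma's voom (adjusted p = 0.119) or when control donor library 1, 2 or 4, mutant donor library 1, 2 or 4, control host library 1 or 2, or mutant host library 4 was left out (adjusted p = 0.056 to 0.0869). The Mag call was also lost with replicate number as a block (edgeR adjusted p = 0.0529). Cnp did not pass, with a log2 difference of -0.28 ± 0.18 (edgeR adjusted p = 0.172). It was called lower with library totals alone (edgeR adjusted p = 0.0285), with limma's voom (adjusted p = 0.0166), and without control library 2 or mutant library 3 of donor microglia (edgeR adjusted p = 0.00971 and 0.00706).

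Choroid plexus genes were higher in 5 of 5 cases. Kl rose by 7.29 ± 0.38 (edgeR adjusted p = 3.13e-20), with 297 UMIs in donor and 5 in host microglia. Clic6, which encodes an intracellular chloride channel protein, rose by 6.89 ± 0.49 (edgeR adjusted p = 9.72e-16), with 177 and 4 UMIs. Summed over the 8 libraries of each side, Ttr was 299-fold higher per UMI sequenced (95% counting interval 283 to 315) and Folr1 582-fold (226 to 2141). Kl, Clic6 and Folr1 had at most 3 UMIs in every host microglia library, so the limit given above for such genes holds for them.

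**Figure D4:**
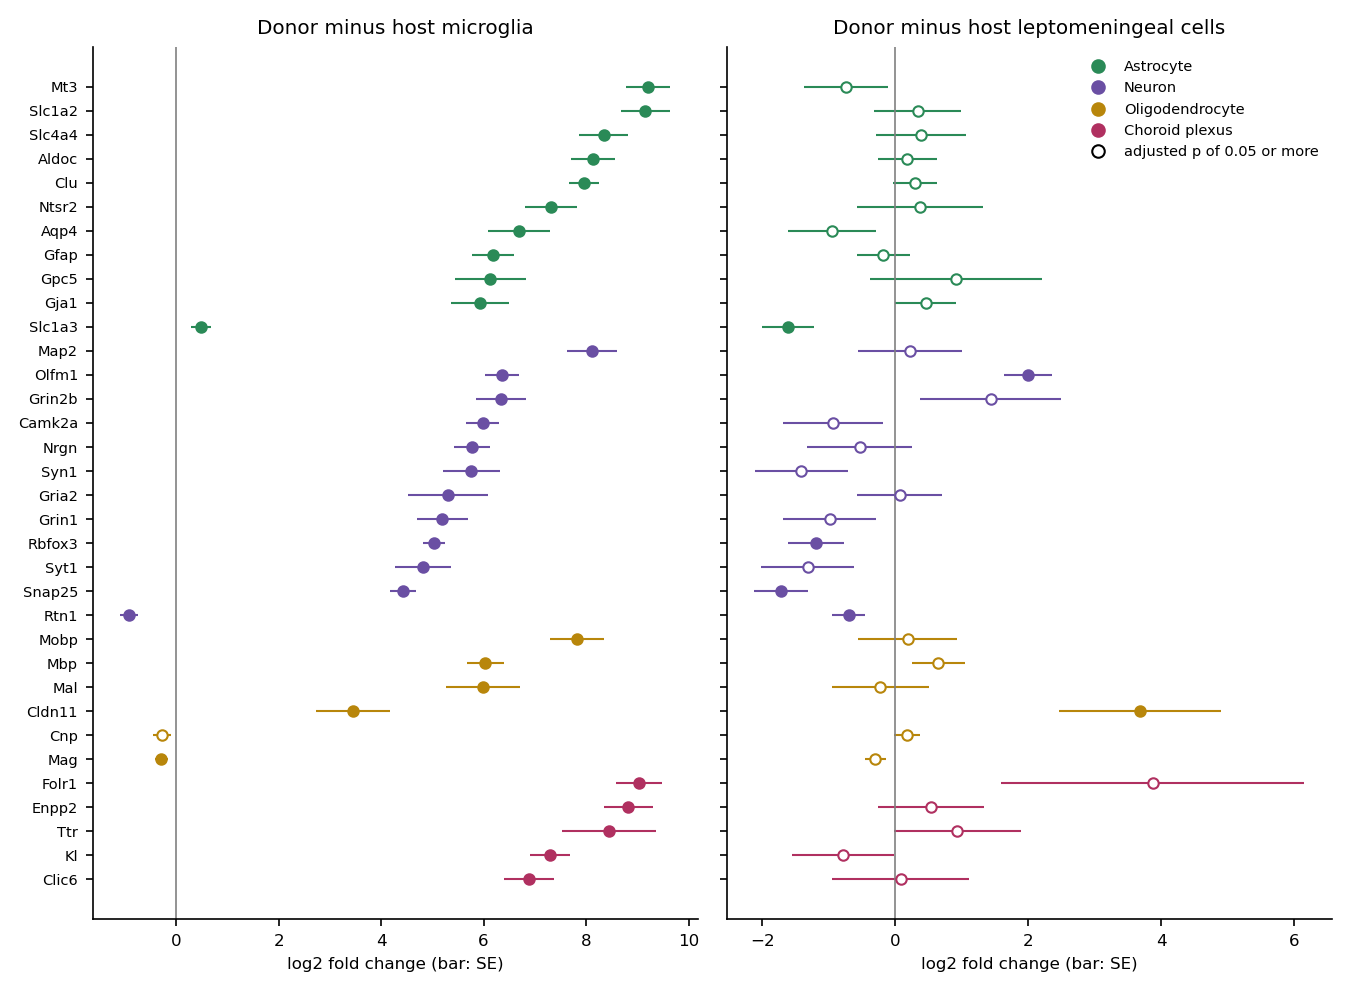
Log2 difference (± SE) of each gene between donor and host cells in the parenchyma and in the leptomeninges, from the edgeR fit over 28 libraries, with genes by class and open circles where the adjusted p was 0.05 or more. In the parenchyma 31 of 34 genes lie above 0 with a median of 6.15 over all 34, while in the leptomeninges the median is 0.13.

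Most other tested genes of the same 4 cell types were also called higher in donor microglia, against 33.1% higher and 27.3% lower over all genes. Of 20 further astrocyte genes tested 18 were higher and 1 lower, of 24 neuron genes 21 and 2, of 11 oligodendrocyte genes 10 and 1, and of 14 choroid plexus genes 14 and 0. Among them Chchd10, which encodes a mitochondrial protein, stood at 344 to 973 CPM in donor and 3.92 to 12.2 CPM in host microglia, and Igfbp2, which encodes a binding protein of insulin-like growth factors, at 137 to 318 and 0 to 2.44 CPM. Genes low in host microglia could pass the low-count filter through donor microglia, so their direction follows in part from being testable. In the choroid plexus list 3 of 14 genes had 0 UMIs in all host microglia libraries. The summed shares did not all follow the counts. In donor and host microglia they averaged 2.36% and 5.80% (astrocyte), 0.176% and 0.211% (neuron), 0.1615% and 0.145% (oligodendrocyte) and 0.155% and 0.00644% (choroid plexus). Among the most abundant genes of these lists several went the other way. Cst3, which encodes the protease inhibitor cystatin C, was at 18490 to 22360 CPM in donor and 42012 to 68392 CPM in host microglia, and Basp1, which encodes a membrane protein of growth cones, at 382 to 519 and 1240 to 1564 CPM. Glul, which encodes glutamine synthetase, overlapped between the populations (91.8 to 248 and 165 to 266 CPM). Trf, which encodes transferrin, did not overlap and was lower in donor cells (693 to 1025 and 1213 to 1378 CPM). Calm2, which encodes calmodulin, was at 271 to 395 and 530 to 727 CPM, while Qdpr, which encodes a pteridine reductase, was at 95.1 to 230 and 50.4 to 68.6 CPM.

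Markers of further brain cells and mitochondrial RNA were also higher in donor microglia. Of 4 ependymal genes 4 were higher, of 6 endothelial genes 5 were higher and 1 lower, and of 7 fibroblast and mural genes 5 were higher. The ependymal list took 0.00355% to 0.00964% of UMIs in donor and 0.000201% to 0.000733% in host microglia, led by Tppp3 and Mia. The endothelial list took 0.0203% to 0.0341% and 0.00529% to 0.00714%. Its most abundant gene Pltp is not restricted to endothelium, and Pecam1, which encodes an adhesion molecule of endothelium and microglia, was lower in donor cells (0 to 5.20 CPM) than in host cells (31.1 to 46.4 CPM). The fibroblast and mural list took 0.0399% to 0.0707% and 0.00218% to 0.00311%, led by Ptgds (381 to 697 and 21.3 to 28.7 CPM) and Vtn, and 2 of its 11 genes had 0 UMIs in all donor microglia libraries. A list of 10 neutrophil genes, led by S100a9 and S100a8, took 0.0950% to 1.03% of UMIs in donor and 0.0162% to 0.113% in host microglia.

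The 8 mitochondrially encoded genes of the table, led by mt-Nd4 and mt-Cytb, took 1.38% to 3.795% of UMIs in donor microglia and 0.101% to 0.305% in host microglia, and 7 of 7 tested were higher. Donor microglia libraries were also the shallowest. The part of cells of other types, of free RNA, of mitochondrial RNA and of depth in the differences above was not tested.

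Donor and host leptomeningeal macrophages were compared to ask the same question at the brain surface. Here 2 of the 34 genes were higher and 4 lower in donor cells, where 30.2% of all genes tested were called, 16.9% higher and 13.3% lower (edgeR). With library totals alone the split over all genes was 1316 higher and 3090 lower, against 2082 and 1636, and the median of all genes moved by -0.23. Of the 34 genes 29 overlapped between the 2 populations, and all 5 choroid plexus genes were without a call. Overlap was not counted over all genes tested, so the 29 cannot be read as particular to these genes.

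Olfm1 rose by 2.00 ± 0.36 on the log2 scale (edgeR adjusted p = 0.000157), and all 8 donor libraries lay above all 4 host libraries. It was 3.41-fold higher per UMI sequenced (95% counting interval 2.84 to 4.13). Cldn11, which encodes a tight junction protein of myelin that is also found in meningeal barrier cells, was called higher on few UMIs, 54 in donor and 2 in host cells (edgeR adjusted p = 0.0178), a 6.56-fold ratio (1.73 to 55.6). It did not pass with replicate number as a block (edgeR adjusted p = 0.0829). Its call was lost when either control host library or mutant host library 2 was left out (edgeR adjusted p = 0.0964, 0.0539 and 0.0649). Slc1a3 fell by 1.62 ± 0.39 (edgeR adjusted p = 0.00269), from 17.6 to 33.3 CPM in host cells to 4.57 to 9.69 CPM in donor cells, with no overlap.

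Snap25 fell by 1.72 ± 0.41 (edgeR adjusted p = 0.000792), with 47 UMIs in donor and 42 in host cells, which were sequenced less deeply. Rbfox3 fell by 1.19 ± 0.42 (edgeR adjusted p = 0.0292), and its call was lost when mutant donor library 1 or 3, either control host library or mutant host library 1 was left out (edgeR adjusted p = 0.0541 to 0.155). Rtn1 fell by 0.70 ± 0.25 (edgeR adjusted p = 0.0352). It did not pass with replicate number as a block or with all genes unfiltered (edgeR adjusted p = 0.138 and 0.0591). Its call was lost when control host library 1, either mutant host library, control donor library 2 or 4, or mutant donor library 2 or 3 was left out (edgeR adjusted p = 0.0587 to 0.176), although no donor library reached a host library. Other genes of the classes had few calls as well: 0 of 20 astrocyte genes were higher and 3 lower, 2 of 24 neuron genes were higher and 6 lower, 1 of 11 oligodendrocyte genes was higher and 3 lower, and 2 of 14 choroid plexus genes were higher and 0 lower. Beside these, the neutrophil list took 0.183% to 0.583% of UMIs in host leptomeningeal macrophages, far below the donor cells, and its part in the result was not tested.

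Donor cells of the leptomeninges were then compared with donor microglia, which share the marrow source. Of the 34 genes 32 were lower in the leptomeninges and 1 was higher, where 62.1% of all genes tested were called, 31.6% lower and 30.5% higher (edgeR). Without control library 2 of donor microglia 31 were lower and 1 higher. The median log2 difference was -4.25 over the 34 genes and -0.033 over all genes. With library totals alone the median of all genes moved by -0.24, and the split over all genes was 2723 higher and 5150 lower instead of 3754 and 3896. This comparison shares the donor microglia libraries with the first one, so a gene that is high in those libraries is called in both.

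Slc4a4 fell by 4.16 ± 0.31 and Clu by 4.38 ± 0.22 on the log2 scale (edgeR adjusted p = 4.1e-15 and 2.09e-13). Snap25 fell by 4.26 ± 0.26 and Rbfox3 by 5.24 ± 0.23 (edgeR adjusted p = 1.81e-18 and 1.83e-18). Mobp fell by 4.66 ± 0.40 and Mbp by 3.53 ± 0.31 (edgeR adjusted p = 1.3e-09 and 2.6e-09). Kl fell by 5.84 ± 0.34 and Clic6 fell by 5.38 ± 0.43 (edgeR adjusted p = 1.2e-18 and 4.53e-14). Kl, Clic6 and Slc4a4 had 14, 11 and 32 UMIs in all donor leptomeningeal libraries. Genes this low there could pass the low-count filter through donor microglia, where they were high. For such genes the direction follows in part from being testable.

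The distances differed within a class. Gja1, which encodes the gap junction protein connexin 43 and is also known from meningeal fibroblasts, fell by 0.93 ± 0.34 (edgeR adjusted p = 0.0172), and the libraries overlapped at 3.28 to 31.8 CPM in donor microglia and 1.92 to 10.4 CPM in the leptomeninges. Without control library 2 of donor microglia its difference was -0.32 (edgeR adjusted p = 0.478). Olfm1 fell by 1.41 ± 0.22 (edgeR adjusted p = 1.22e-05). Cnp was higher in the leptomeninges by 0.79 ± 0.17 (edgeR adjusted p = 0.000235), and Cldn11 did not pass (-0.35 ± 0.54, edgeR adjusted p = 0.587). The fibroblast and mural list went the other way from the 34 genes, with 6 of 7 genes higher in the leptomeninges and 0.344% to 0.489% of UMIs there. Neutrophil genes were higher in the leptomeninges in 10 of 10 cases with a median log2 difference of 4.75, and took 6.41% of UMIs on average there against 0.343% in donor microglia. The mitochondrially encoded genes took 0.898% to 1.43% and 7 of 7 were lower. The part of these cells and RNAs in the comparison was not tested.

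Of the further genes of the 4 cell types, 18 of 20 astrocyte, 19 of 24 neuron, 8 of 11 oligodendrocyte and 12 of 14 choroid plexus genes were lower in donor cells of the leptomeninges. In the opposite direction were 1, 3, 2 and 0 genes.

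Host cells were compared between the compartments in the same way. Of the 34 genes 20 were higher in leptomeningeal macrophages than in host microglia and 3 were lower, where 56.7% of all genes tested were called, 31.1% higher and 25.7% lower (edgeR). With library totals alone the median of all genes moved by -0.18, and the split was 3174 higher and 4043 lower instead of 3832 and 3162. The summed shares did not follow these counts. The astrocyte share was 0.0137% in host leptomeningeal macrophages and 0.0181% in host microglia and the neuron share 0.0113% and 0.0185%, while the choroid plexus share was 0.00853% and 0.00854%. Slc1a3 and Rtn1, which lead the first 2 of these shares in host microglia, are among the genes lower in the leptomeninges. The 20 calls were 8 of 11 astrocyte, 8 of 12 neuron, 3 of 6 oligodendrocyte and 1 of 5 choroid plexus genes. The count fell to 12 without control library 1 of host leptomeningeal macrophages, which leaves that group with a single library.

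Gfap rose by 4.10 ± 0.58 and Gja1 by 4.55 ± 0.74 on the log2 scale (edgeR adjusted p = 5.77e-08 and 1.41e-06). In UMIs Gfap had 29 in leptomeningeal and 6 in parenchymal host cells, a 17.7-fold ratio after depth (95% counting interval 7.23 to 52.2). Olfm1 rose by 2.96 ± 0.52 and Snap25 by 1.88 ± 0.40 (edgeR adjusted p = 4.67e-05 and 9.16e-05). Mbp rose by 1.86 ± 0.42 (edgeR adjusted p = 0.000695), and host microglia had the lowest Mbp of the 4 populations, with 28.9 ± 3.89 CPM (SD, n = 8).

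Several calls rested on few UMIs. Among them were Mal, which encodes a raft protein of myelin, with 8 against 2 UMIs, Kl with 7 against 5, Map2 with 7 against 2, Gria2 with 6 against 1 and Syt1 with 11 against 6. The Mal call was lost without mutant library 1 of host leptomeningeal macrophages (edgeR adjusted p = 0.0546), and the Kl call when any of the 4 host leptomeningeal libraries was left out (edgeR adjusted p = 0.0537 to 0.162). The Map2 call was lost without control library 1 or mutant library 1, and those of Gria2 and Syt1 without control library 1 or mutant library 2 (edgeR adjusted p = 0.0876 to 1). Slc1a3 fell by 2.48 ± 0.31, Rtn1 by 1.85 ± 0.23 and Mag by 0.65 ± 0.15 (edgeR adjusted p = 4.16e-07, 9.53e-08 and 0.000254), and these 3 genes were lower in the leptomeninges in donor cells too. Ttr did not differ by the test (0.03 ± 0.95, edgeR adjusted p = 0.995), and its levels in host leptomeningeal macrophages were 84.0, 7.97, 104 and 104 CPM.

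Markers of surface cells moved with these genes. The fibroblast and mural list took 0.356% to 0.539% of UMIs in host leptomeningeal macrophages and 6 of 7 of its genes were higher there. The endothelial list took 0.0952% to 0.138%, with 3 of 6 genes higher and 1 lower, and the ependymal list 0.00271% to 0.00592%, with 2 of 4 higher. The mitochondrially encoded genes took 1.38% to 1.69%, and 7 of 7 were higher. Their part in the result was not tested. Of the further genes of the 4 cell types 13 of 20 astrocyte, 14 of 24 neuron, 8 of 11 oligodendrocyte and 7 of 14 choroid plexus genes were higher, and 1, 1, 1 and 0 were lower.

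The difference between compartments in the donor-minus-host contrast was tested directly. In this interaction 27 of the 34 genes were lower, that is, their excess in donor cells was smaller in the leptomeninges than in the parenchyma, where 42.2% of all genes tested were called, 23.2% lower and 19.1% higher (edgeR). Of the 27, 11 had at most 3 UMIs in every host microglia library, Gfap, Kl and Mal among them, and passed the low-count filter through libraries where they were higher, so for these the direction follows in part from being testable. The other 16 had more than 3 UMIs in some host microglia library, but this does not free each of them from the limit. Ntsr2 and Grin1, for instance, reached at most 1.61 and 1.96 CPM in host microglia. None of the 34 was higher, and 0 had an unadjusted p under 0.05 in that direction. DESeq2's Wald test also called 0 higher and limma's voom called 1, which was Cnp (0.65, adjusted p = 0.0111). Without control library 2 of donor microglia edgeR called 27 lower and 2 higher, Cnp and Rtn1 (adjusted p = 0.0163 and 0.0382), and without mutant library 3 it called Cnp higher (adjusted p = 0.013).

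The interaction was -7.66 ± 0.52 for Clu and -6.36 ± 0.65 for Gfap (edgeR adjusted p = 1.15e-10 and 5.33e-11). It was -6.14 ± 0.54 for Snap25 and -6.23 ± 0.55 for Rbfox3 (edgeR adjusted p = 8.04e-13 and 1.68e-10), and -5.39 ± 0.51 for Mbp and -6.22 ± 1.20 for Mal (edgeR adjusted p = 2.85e-08 and 4.46e-05). For Kl it was -8.08 ± 1.26 and for Ttr -7.52 ± 1.21 (edgeR adjusted p = 1.34e-06 and 3.54e-05). The Ttr call was lost without control library 1 of host leptomeningeal macrophages (-6.22, edgeR adjusted p = 0.161).

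The 7 genes without a call were of 2 kinds. Gpc5, Grin2b and Folr1 had 1, 5 and 0 UMIs in all host leptomeningeal libraries, and edgeR gave no usable error for them. DESeq2's Wald test and limma's voom called all 3 lower. Cnp, Mag, Rtn1 and Cldn11 had interactions of 0.46, -0.01, 0.22 and 0.22 (edgeR adjusted p = 0.162, 1, 0.61 and 0.788). The standard errors were 0.26 for Cnp, 0.20 for Mag and 0.31 for Rtn1. Cldn11 had 2 UMIs in all host leptomeningeal libraries, so its value near 0 does not show that an interaction was absent. Of the further genes, 17 of 20 astrocyte, 21 of 24 neuron, 9 of 11 oligodendrocyte and 9 of 14 choroid plexus genes were lower, and 1 neuron gene was higher.

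Mutant and control chimeras were compared within each population to ask whether recombination of the DNMT3A allele in blood-forming cells went along with different levels of these genes. In donor microglia edgeR called 0 of the 34 genes, where 0.0892% of all genes tested were called, 0.0568% higher and 0.0324% lower. An unadjusted p under 0.05 was found for 11 of the 34, with higher levels in mutant cells for each, and 30 of 34 fold changes were positive with a median log2 difference of 0.63, against 0.003 over all genes. Counts by unadjusted p or by sign, here and in the populations below, are given without the share over all genes. They are not read as results about the 34 genes. DESeq2's Wald test also called 0, and limma's voom with sample quality weights called 10 higher and 0 lower.

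The smallest adjusted p was that of Snap25, which stood at 14.6, 72.2, 27.9 and 27.7 CPM in control and 53.3, 69.3, 68.6 and 71.8 CPM in mutant donor microglia (0.83 ± 0.28, edgeR adjusted p = 0.271). In control library 2 it was as high as in the mutant libraries, while the other 3 control libraries lay below all 4 mutant ones. The same arrangement is seen in the values of Aldoc, Slc1a2, Nrgn, Olfm1, Rtn1, Mbp and Mobp given above. For each of these genes control library 2 lay within or above the mutant range and the other 3 control libraries below it.

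Without control library 2, 18 of the 34 genes were higher in mutant donor microglia, 8 of 11 astrocyte, 7 of 12 neuron, 3 of 6 oligodendrocyte and 0 of 5 choroid plexus genes. That library was singled out by its high levels of these same genes. The calls and adjusted p without it therefore show how far the result hangs on 1 library, and are no independent test of genotype. Over all genes the same fit called 408 higher and 88 lower, so more genes passed outside the 4 classes too. The median log2 differences were 1.44 for astrocyte, 1.38 for neuron, 1.68 for oligodendrocyte and -0.06 for choroid plexus genes. With all libraries they were 0.62, 0.73, 0.63 and -0.11.

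Olfm1 had the smallest adjusted p in this fit, with 1.59 (edgeR adjusted p = 5.48e-09), against 0.77 ± 0.32 with all libraries (edgeR adjusted p = 0.413). Ntsr2, which encodes a neurotensin receptor of astrocytes, went from 0.89 to 2.04 (edgeR adjusted p = 0.487 and 7.87e-06), and Mbp from 0.80 to 1.76 (edgeR adjusted p = 0.509 and 0.000179). Enpp2 stayed at -0.11 ± 0.41 and -0.06 (edgeR adjusted p = 0.955 and 0.972). Leaving out any other donor microglia library left the count of calls at 0.

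**Figure D5:**
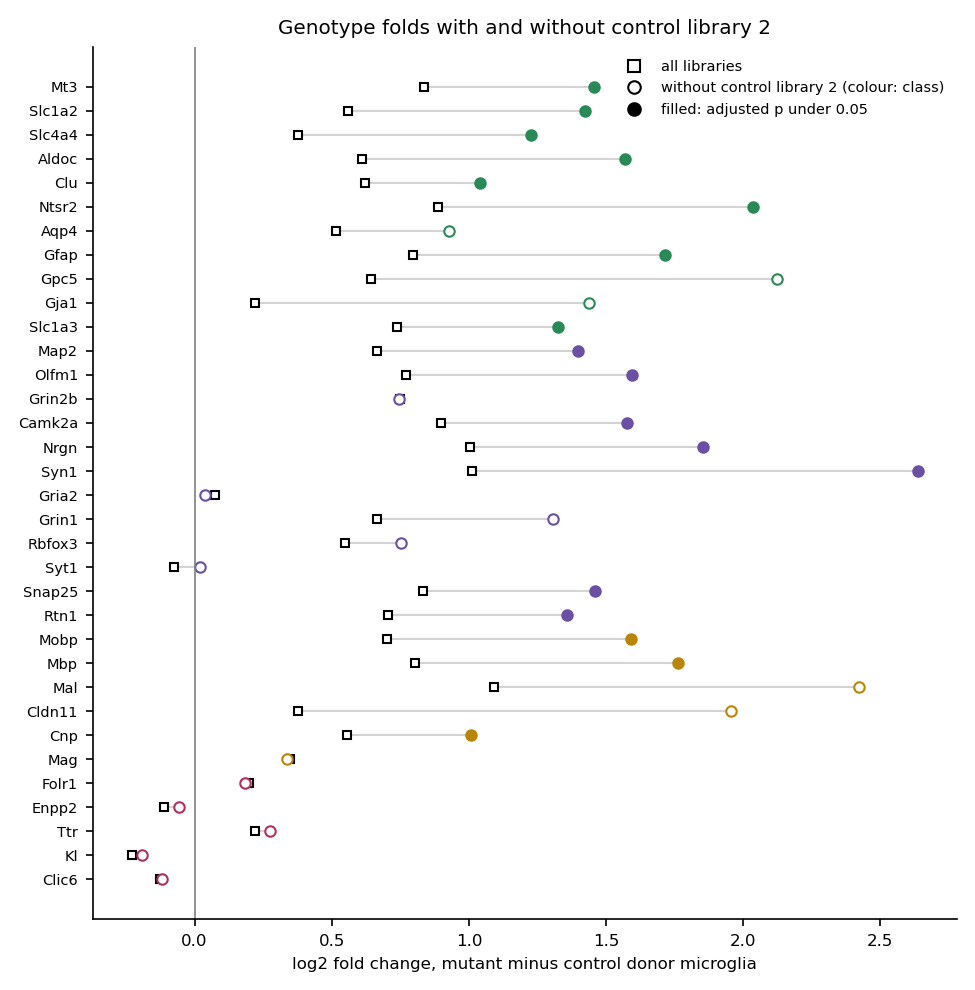
Log2 difference between mutant and control donor microglia for each of the 34 genes, from the edgeR fit with all libraries and without control library 2. Squares are all libraries, circles are without that library, and filled circles have an adjusted p under 0.05. Without it astrocyte, neuron and oligodendrocyte genes other than Grin2b, Gria2 and Mag lie at higher values, and choroid plexus genes stay between -0.19 and 0.27.

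Other measures moved with this comparison. The mitochondrially encoded share was 1.38%, 3.795%, 1.62% and 2.08% in control and 2.13%, 3.43%, 2.52% and 3.17% in mutant donor microglia, with control library 2 the highest of all 8. The neutrophil list held 0.119%, 0.272%, 0.825% and 1.03% with control marrow and 0.122%, 0.108%, 0.174% and 0.0950% with mutant marrow, so it was not highest in control library 2. Mutant libraries 1, 2 and 3 were deeper than any control library, at 937447 to 1013608 UMIs. The further genes had positive differences in 19 of 20 astrocyte, 23 of 24 neuron, 10 of 11 oligodendrocyte and 5 of 14 choroid plexus cases, with 0 calls. Of these 4, 11, 2 and 0 had an unadjusted p under 0.05. The part of mitochondrial RNA, neutrophils and depth in the genotype comparison was not tested.

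In host microglia edgeR called 0 of the 34 genes between genotypes, where 0.0649% of all genes were called, 0.0568% higher and 0.00811% lower, and 0 of the 34 had an unadjusted p under 0.05. In donor leptomeningeal macrophages it called 0, where 0.0487% of all genes were called, 0.0324% higher and 0.0162% lower. The unadjusted p was under 0.05 for 5 of the 34, each with the lower level in mutant cells: Snap25 (-1.43 ± 0.52), Grin1 (-1.97 ± 0.78), Rbfox3 (-1.197 ± 0.50), Syn1, which encodes synapsin of synaptic vesicles (-2.02 ± 0.88), and Mal (-1.66 ± 0.78). Their edgeR adjusted p was 1 in each case. In host leptomeningeal macrophages it called 0, where 0% of all genes were called, and 3 had an unadjusted p under 0.05, namely Grin2b, on 5 UMIs in all, Mag and Snap25. DESeq2's Wald test and limma's voom also called 0 of the 34 genes in each of these 3 populations. The 2 host leptomeningeal libraries per genotype limit what that comparison can show.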

How the data were processed

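Each library has 3 columns in the authors' table (raw, normalized and rlog), per the file headers. The deposited raw columns hold UMI counts per gene symbol and were used. The deposited normalized signal and the deposited rlog (log2) columns were not used. The submitters' processing notes name mm10. No aligner is named in those notes. Positions came from GENCODE M21.

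Counts were tested with edgeR 4.0.16 (R 4.3.3): robust quasi-likelihood F test, TMM scaling, filterByExpr by the 8 groups (12327 genes), 28 libraries, Benjamini-Hochberg adjustment at 0.05. CPM are relative to the library total. The standard error (SE) is the size of the log2 difference divided by the square root of F. Ratios of summed counts have exact 95% intervals, which cover counting error only, as do floors of 3 UMIs. Among 38 replicate pairs 0 were identical. The labels name no batch. Data were simulated for donor against host microglia (12327 genes). There edgeR recovered 22 of 50 genes changed 1.5-fold, 41 of 50 at 2-fold and 46 of 50 at 4-fold and at 8-fold, with 16 false calls among 171. The changed genes were drawn only from more abundant ones, and all other genes were set equal, unlike in the data. The recovery thus does not cover genes as low as Cldn11 or Mal.

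The genes and lists were chosen with earlier results of these data known. Values in every library are given for the 3 genes per class with the highest mean CPM. In each other comparison up to 2 genes per class and direction with the smallest adjusted p are named, and of each other list the 2 most abundant genes. Further genes were named after their values were seen. Alternatives were DESeq2 (1.42.0) size factors in edgeR, library totals alone, all genes unfiltered, limma (3.58.1) voom with quality weights, DESeq2's Wald test, the groups of a comparison alone, a replicate block, leaving out each library, and class shares without the largest gene.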

Additional observations from a re-analysis of the deposited data

Results flagged for a closer look

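Each class share and each gene with values in every library was examined in each group of 4 libraries for a library far from the others. Of these 96 sets of 4 values, 11 had one. The sets share libraries and genes, so the 11 cannot be set against a rate expected by chance. Where a gene had 0 UMIs in all libraries of a group but 1, as with Folr1, that library is flagged whatever its level. Control library 2 of donor microglia was highest for Aldoc (1662 CPM, next 465), Olfm1 (488 CPM, next 154), Rtn1 (113 CPM, next 41.6) and Mbp (3120 CPM, next 928). Control library 4 of donor leptomeningeal macrophages was highest for the choroid plexus share (0.0383%, next 0.00518%), Ttr (355 CPM, next 44.0) and Folr1 (2.58 CPM, with 0 in the others). Mutant library 3 of donor leptomeningeal macrophages was highest for Enpp2 (27.4 CPM, next 4.57) and lowest for Clu (22.6 CPM, next 33.1). Control library 2 of donor leptomeningeal macrophages had the lowest neuron share (0.0137%, next 0.0144%), and mutant library 4 of host microglia held 1 UMI of Folr1 (0.611 CPM, with 0 in the others), which is under the floor of 3 UMIs and does not set that library apart.

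The difference between donor and host cells was itself different between the compartments, by edgeR's interaction test, for 27 of the 34 genes in the lower direction and 0 in the higher. Of the 27, 11 had at most 3 UMIs in every host microglia library, Gfap, Kl and Mal among them, so their direction follows in part from being testable. The named log2 interactions were -7.66 for Clu, -6.36 for Gfap, -8.08 for Kl, -6.22 for Mal, -5.39 for Mbp, -6.23 for Rbfox3, -6.14 for Snap25 and -7.52 for Ttr.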

How the results depend on the processing

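Of 348 recomputed counts of called genes 324 stayed within 1.5 times the main count, but many of these are genotype comparisons with 0 in both fits. Of 144 recomputed class shares 133 moved by less than 1 SD. Most of the 144 leave out 1 library, which cannot move a mean by 1 SD, so the 133 do not measure stability. The 11 that moved were all shares without the largest gene. In donor against host microglia the count lower was 1 with DESeq2 size factors, 1 with DESeq2's Wald test, 1 with the replicate block and 1 to 3 without 1 library (main 2). In donor against host leptomeningeal macrophages the count higher was 1 with the replicate block and 1 to 2 without 1 library (main 2), and the count lower 2 to 4 (main 4). The count higher in host leptomeningeal macrophages against host microglia was 12 to 20 without 1 library (main 20). The interaction had 1 gene higher with limma's voom and 0 to 2 without 1 library (main 0). Mutant against control donor microglia had 10 higher with limma's voom and 0 to 18 without 1 library (main 0), and over all genes DESeq2's Wald test called 51 higher and 23 lower and voom 116 and 8, against 7 and 4. Enpp2 changed sign there without control library 3 (0.10) or mutant library 1 (0.11), in a range of -0.33 to 0.11 without 1 library. The cause of these changes was not tested.

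Without the largest gene the shares became, for donor leptomeningeal and host leptomeningeal macrophages, 0.00725% and 0.00971% (astrocyte, without Aldoc) and 0.00413% and 0.00857% (neuron, without Olfm1). The oligodendrocyte share without Mbp was 0.0462% in donor and 0.0138% in host microglia, 0.0116% in donor and 0.0129% in host leptomeningeal macrophages. The choroid plexus share without Ttr was 0.135% in donor and 0.000354% in host microglia and 0.00102% in host leptomeningeal macrophages.

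Replicate numbers were checked for pairing: correlations of same-numbered libraries' deviations ran from -0.18 to 0.13. Only that of control and mutant donor microglia library 1, from different chimeras, was above 0.1. The numbers were not treated as pairs. With the replicate block donor microglia were called higher than host microglia for 30 genes and lower for 1. Precision is limited by depth in donor microglia and by 2 libraries per group in host leptomeningeal macrophages, where 7 of the 34 genes had at most 3 UMIs in every library.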
